A study of Rattus norvegicus with 10 samples.

Results

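Curated non-coding RNA records were examined in hippocampal RNA of rats with and without earlier stimulation of the amygdala. A record is a row of the count matrix whose RefSeq identifier starts with NR_, the prefix RefSeq gives to curated transcripts that do not code for protein. Records with at least 100 counts summed over all rats were kept, which left 57 of 465 curated non-coding records and 57 of 32041 rows in all. Of the others, 135 held 1 to 99 counts and 273 held 0. The records were chosen by their summed counts over both groups. Levels of the kept records are therefore described without a test, and the test applied to them is that between the groups.

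The RNA was that of 10 male rats of the outbred Sprague-Dawley strain. It was taken from the left hippocampus, in a piece with the CA3 field and the dentate gyrus that the labels call dorsal hippocampus. All 10 rats were anaesthetised with isoflurane and butorphanol and had an electrode implanted in the left lateral amygdala. The 5 sham rats (rats 1 to 5) received no current. The 5 stimulated rats (rats 6 to 10) received 400 µA at 60 Hz for 30 min, which evoked status epilepticus that was ended with diazepam, and tissue was taken from both groups 3 months later. The rats are separate animals, and the tissue piece holds many cell types, so fewer cells of a type and less RNA per cell cannot be told apart in any value below. The study reports spontaneous seizures in all stimulated rats, seen on video EEG before tissue was taken. The study's methods count fewer stimulated rats for this assay than the labels, so the omission of each rat was also tried.

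Ribosomal RNA is made in the nucleolus as a long precursor that is cut into the 18S, 5.8S and 28S RNAs, while 5S RNA is made apart from it by RNA polymerase III. The same polymerase makes Bc1, a short RNA of rodent neurons that travels into dendrites and represses translation, and the RNA subunits of the ribonucleases P and MRP, which trim tRNA and ribosomal precursors. MicroRNAs are cut from hairpins in longer transcripts, and many snoRNAs, which guide modification of ribosomal RNA, lie in introns of non-coding host genes such as Gas5. Most of these RNAs carry no poly(A) tail, and these libraries were made from RNA bound to oligo(dT) and sequenced with single-end reads of 36 cycles. Whether a count on such a record came from a tailed form was not tested.

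RefSeq names for the GRCr8 assembly gave a symbol to 49 of the 57 records, for 46 distinct genes. By gene type, 5 records were ribosomal RNAs, 6 were small RNAs, 2 were host genes of snoRNAs, 8 were other long non-coding RNAs and 9 were pseudogenes. A further 19 were non-coding transcripts of 16 protein-coding genes, and 8 were unmatched. Small RNAs were the class that the count minimum thinned most, since 396 of the 465 curated records were small RNAs and 6 were kept. Among the 392 microRNA records, 270 held 0 counts in all rats and 4 reached the minimum.

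Sequences linked to some of the small RNA records are given below. Reads were assigned to whole hairpin records and not to the mature forms printed here. The mature microRNAs of the 4 kept hairpin records are given from RefSeq (GRCr8), 5′ to 3′, with the seed, bases 2 to 8 that pair with targets, in capitals. Mir212 and Mir132 are added because they lay just below the minimum with most of their counts in 2 rats, and because their 3p forms share 1 seed. The first 30 bases of Bc1, at chr1:209502897-209502926 on the plus strand of GRCr8, are given because Bc1 held most of the counts outside ribosomal RNA. Its capitals, bases 14 to 24, mark a match to the A box, a motif inside genes read by RNA polymerase III.
rno-miR-22-5p: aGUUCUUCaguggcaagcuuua
rno-miR-22-3p: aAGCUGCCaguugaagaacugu
rno-miR-935: cCAGUUACcgcuuccgcuaccgc
rno-miR-770-5p: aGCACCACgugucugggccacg
rno-miR-770-3p: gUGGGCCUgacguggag
rno-miR-568: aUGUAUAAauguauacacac
rno-miR-212-3p: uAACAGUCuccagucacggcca
rno-miR-132-3p: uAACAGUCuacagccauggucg
Bc1: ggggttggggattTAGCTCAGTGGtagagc

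The 6 mature forms of the kept hairpins have 6 different seeds, so none of them forms a seed family with another kept record. The A box letters, on either strand, occurred in the first 30 bases of 973 of the 33469 starts in the promoter table (2.91%). The match is a description of letters, and use of the motif was not tested.

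Aligned counts ranged from 13552309 to 24086059 per rat. Levels are in CPM, with library sizes scaled by TMM factors, where 3 counts correspond to 0.124 to 0.229. All 57 records passed the filter on low counts, with 22447 of the 32041 rows tested. The 10 listed neuronal markers were present, the lowest with a mean of 187 CPM, and 9 of 10 dentate and CA3 markers were tested. Stimulated rats differed among themselves in immediate early genes, which neurons switch on after activity. Their summed level was 435 to 515 CPM in sham rats, 481 and 458 CPM in rats 6 and 8, and 1395, 2637 and 995 CPM in rats 7, 9 and 10. At an unadjusted p-value under 0.05 (edgeR), 14 of 16 immediate early genes, 5 of 10 astrocyte, 5 of 9 endothelial and 2 of 10 microglial markers were higher in stimulated rats, and 0 of 10 neuronal and 0 of 10 oligodendrocyte markers were. Also higher were 2 of 9 dentate and CA3 markers, Npy with a log2 fold change of 3.22 and Chgb with 0.45, and 1 of 7 choroid plexus markers, Aqp1 with 1.98. Over all tested rows, 6.7% were called higher at this p-value. The listed choroid plexus markers summed to 6.74 to 22.0 CPM in sham and 9.44 to 35.3 CPM in stimulated rats, with 7 of 8 tested. The part of these differences in the results on non-coding records was not tested.

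No non-coding record differed between stimulated and sham rats at an adjusted p-value under 0.05. Neither did any of the 22447 rows (edgeR quasi-likelihood test, lowest adjusted p = 0.376, 0% called). The study's own edgeR test, with fewer stimulated rats, lists many transcripts under that adjusted p-value, Fos among them. Its test and set of rats differ from those used here, and which rat it left out was not stated. At an unadjusted p-value under 0.05, 2 of the 57 records were higher in stimulated rats, CB741658 and H19, against 6.7% of all tested rows called higher. In the other direction 2 records were lower, Rn28s and Rpph1, against 3.16% of all rows. In either direction that is 4 records of 57, with 9.86% of all rows called. No record had groups that did not overlap, which 1.29% of all rows had. The fold change was positive for 21 records and negative for 36, with a median of -0.05 on the log2 scale. Over all tested rows 52.2% were positive and the median was 0.01. Of the 36, 14 were non-coding rows of protein-coding genes and 5 were ribosomal RNA records. Several of these share a gene or a precursor, so the 57 records are not separate observations. Class medians ran from -0.71 for ribosomal RNA and -0.18 for small RNA to 0.17 for the 2 host genes and 0.23 for other long non-coding RNA, and a difference between classes was not tested. With single rats left out, these medians ranged from -0.97 to -0.42, from -0.37 to -0.10, from 0.04 to 0.39 and from 0.18 to 0.38.

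**Figure D1:**
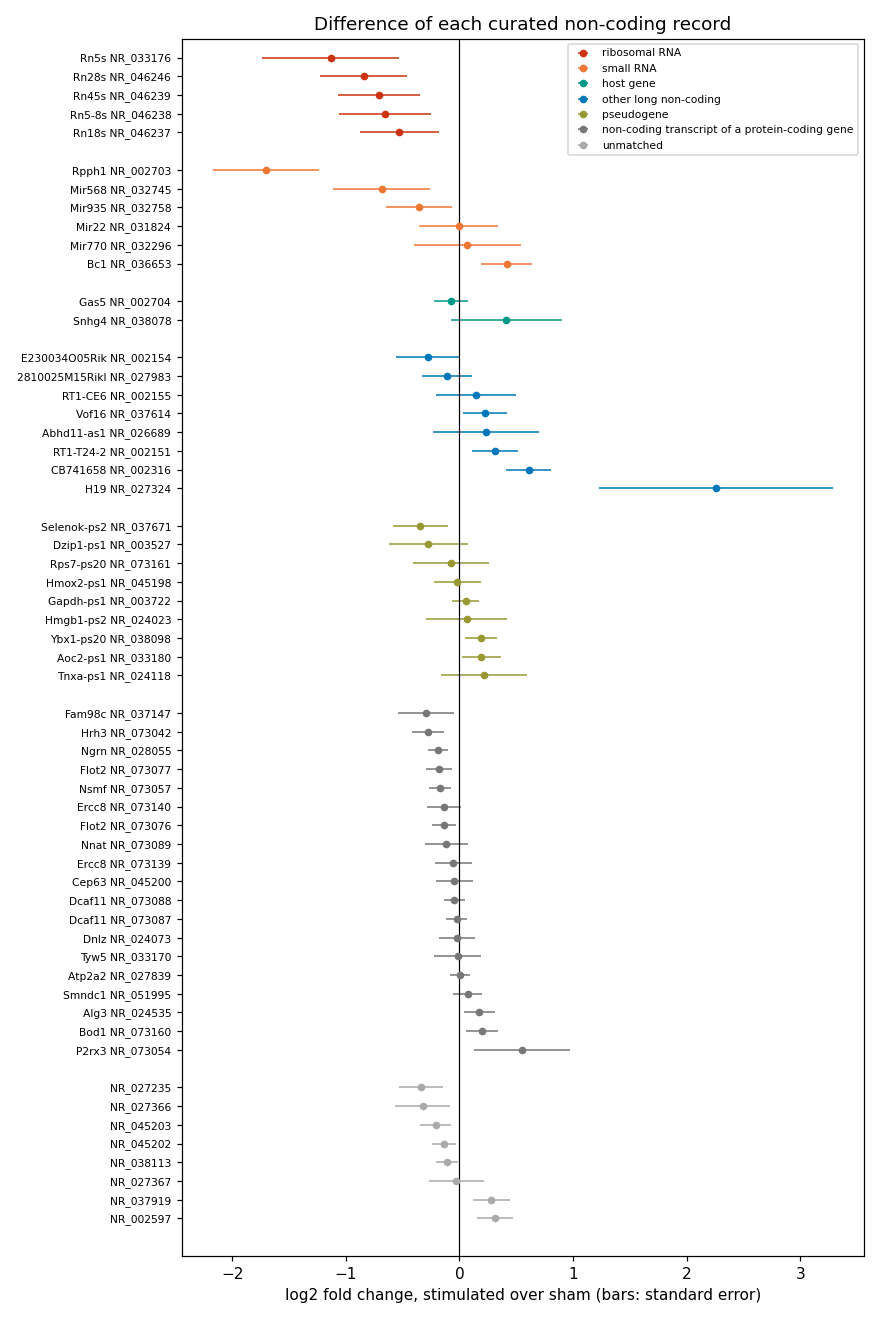
Log2 fold change of stimulated over sham rats (x axis) for each of the 57 curated non-coding records (y axis, symbol and identifier, coloured by class), with bars of 1 standard error from the edgeR fit (n = 5 rats per group). All 5 ribosomal RNA records lie left of 0, Rpph1 is farthest left at -1.70 and H19 is farthest right at 2.26 with an error of 1.03.

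Ribosomal RNA records held most of the counts on curated non-coding records. Their share of aligned counts was 7.27% ± 3.79 in the sham group and 4.59% ± 1.02 in the stimulated group (± SD over 5 rats each, here and below). The share was highest in sham rat 1 at 12.22% (Wilson 95% interval 12.21% to 12.24%) and lowest in sham rat 5 at 1.817% (1.811% to 1.822%). These intervals cover counting error only. The stimulated rats lay between these, from 3.03% to 5.64%. Both extremes were thus sham rats, and the sham group spread wider than the stimulated group. The libraries were selected for polyadenylated RNA, so these shares and the levels below describe counts and not amounts of ribosomal RNA in the tissue. How much ribosomal RNA passed the selection in each library was not tested. The shares are of aligned counts alone. Unaligned reads made up 32.8% to 37.1% of reads in sham rats. They made up 41.4% to 45.1% in stimulated rats 8 to 10, while rats 6 and 7 did not exceed the sham range.

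Rn45s, the record of the 45S precursor, had the most counts of any of the records, 5565878. Its level was 65265, 45114.5, 36986, 30786 and 8665 CPM in sham rats 1 to 5. In stimulated rats 6 to 10 it was 20259, 24091, 28096, 26882 and 14875 CPM. Sham rats 1 to 4 were above all stimulated rats and sham rat 5 was below all of them, so the groups overlapped through 1 animal. Stimulated over sham, the log2 fold change was -0.71 (SE 0.362, edgeR unadjusted p = 0.0702, adjusted p = 0.540).

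Rn28s, the RNA of the large ribosomal subunit, measured 41075, 27411, 20809, 18486 and 4799 CPM in the sham rats. The stimulated rats measured 12312, 12731.5, 16848, 12994 and 7863 CPM. The order of the rats was the same as for Rn45s in all 10 places. Its log2 fold change was -0.84 (SE 0.383, edgeR unadjusted p = 0.0452, adjusted p = 0.491).

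Rn18s, the RNA of the small subunit, measured 23561, 17507, 15910.5, 12060.2 and 3622 CPM in the sham rats and 7829, 10878, 11086, 13753 and 6819 CPM in the stimulated rats. Here stimulated rat 9 lay above sham rat 4, so the overlap went beyond sham rat 5. The difference was -0.53 on the log2 scale (SE 0.349, edgeR unadjusted p = 0.152, adjusted p = 0.631). Rn18s lies within the span of Rn45s in GRCr8, and how reads on both were counted was not stated, so these records are not independent measurements and their separate levels are uncertain.

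Ratios between the long ribosomal records varied less than their levels. For Rn45s over Rn18s this may be partly built in, since Rn18s lies within the span of Rn45s. Counts on Rn45s over those on Rn18s were 2.52 ± 0.174 in sham and 2.29 ± 0.264 in stimulated rats, and differed by 1.42 times between the most distant rats. Counts on Rn28s over Rn18s were 1.49 ± 0.182 in sham and 1.27 ± 0.266 in stimulated rats. They ran from 0.945 in rat 9 to 1.74 in rat 1, a spread of 1.85 times. Per 1000 bases of record, Rn18s stood at 7763 ± 3938 CPM in sham rats, Rn28s at 4685 ± 2755 and Rn45s at 4305 ± 2379. In stimulated rats these levels per 1000 bases were 5381 ± 1483, 2611 ± 664 and 2632 ± 619 CPM.

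The short ribosomal records followed a different order of rats. Rn5-8s, the 5.8S RNA cut from the same precursor, measured 528, 219.5, 258, 232 and 199 CPM in sham rats and 112, 453, 110.5, 125 and 111 CPM in stimulated rats. Sham rat 1 and stimulated rat 7 stood far above the rest of their groups. Set against Rn18s it ranged from 9.10 to 54.9 counts per 1000, a spread of 6.03 times, with the top value in sham rat 5, whose Rn18s was lowest. The log2 fold change of Rn5-8s was -0.65 (SE 0.404, edgeR unadjusted p = 0.129, adjusted p = 0.608).

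Rn5s, the 5S RNA, was low at 42.8, 39.3, 19.9, 14.2 and 5.95 CPM in sham rats and 6.06, 31.8, 4.73, 3.11 and 9.44 CPM in stimulated rats. Stimulated rat 7 was again the only stimulated rat inside the range of sham rats 1 to 4. Against Rn18s it varied by 12.9 times, from 0.226 to 2.92 counts per 1000. Its log2 fold change of -1.13 was the most negative of the ribosomal records and had the widest error (SE 0.603, edgeR unadjusted p = 0.0821, adjusted p = 0.553). Per 1000 bases it stood at 204 ± 133 CPM in sham rats, far under the other ribosomal records.

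**Figure D2:**
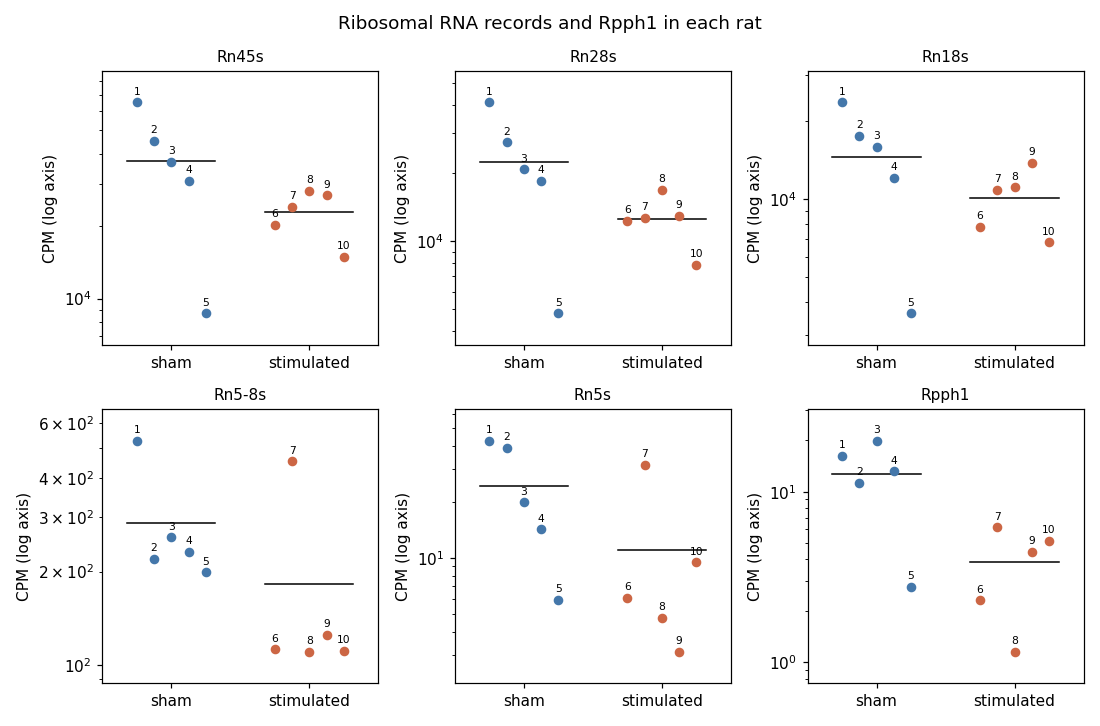
Level of the 5 ribosomal RNA records and of Rpph1 in each rat (y axis, CPM on a log axis; numbers are rats, lines are group means, and points are spread sideways only to be seen). Sham rats 1 to 4 lie above the stimulated rats for Rn45s, Rn28s and Rpph1, sham rat 5 is the lowest sham rat in all 6 panels, and stimulated rat 7 stands high for Rn5-8s and Rn5s.

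The tests of the ribosomal records changed with single rats. Without sham rat 5, the groups of Rn45s, Rn28s and Rpph1 no longer overlapped, as for 2.3% of all rows. In that fit 5 records were lower at an unadjusted p-value under 0.05 (3.13% of all rows), namely Rn45s, Rn28s, Rn18s, Rn5s and Rpph1. Rn45s then had a log2 fold change of -0.97 and Rn28s of -1.11 (edgeR adjusted p = 0.610 for both). Without stimulated rat 7, Rn5-8s did not overlap (1.88% of all rows) at a log2 fold change of -1.33 (edgeR adjusted p = 0.601), and Rn5s reached -2.06. That fit had 4 records lower at an unadjusted p-value under 0.05, against 2.63% of all rows. Sham rat 5 and stimulated rat 7 were singled out from these same values. Leaving them out was bound to end the overlap of Rn45s, Rn28s, Rpph1 and Rn5-8s, while Rn18s and Rn5s still overlapped. These fits therefore add no support for a difference in any of these records. Rn45s, Rn28s and Rn18s also belong to the same precursor and are not separate calls. Of the 10 fits that left out 1 rat, Rn28s had an unadjusted p-value under 0.05 in 3, those without sham rat 4, sham rat 5 or stimulated rat 8.

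Messenger rows for proteins of ribosome assembly were counted as well. Of 40 listed genes, from subunits of RNA polymerase I to processing factors, 35 were tested. At an unadjusted p-value under 0.05 (edgeR), 2 were higher, beside 6.7% of all tested rows, 0 were lower and 0 passed the adjustment. Fbl, the methyltransferase of box C/D snoRNPs, averaged 35.1 CPM over sham rats and 65.3 CPM over stimulated rats (log2 fold change 0.90, adjusted p = 0.439). Its highest value was 153 CPM in stimulated rat 7. Nop58, a partner of Fbl in these particles, had a log2 fold change of 0.41 (adjusted p = 0.420).

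Rpph1 had the lowest p-value of the 57 records. The table names it after the RNA subunit of ribonuclease P and gives its gene type as RNase MRP RNA, so which of these related RNAs the record holds was left unsettled. It measured 16.2, 11.3, 19.9, 13.2 and 2.77 CPM in sham rats and 2.31, 6.18, 1.15, 4.44 and 5.16 CPM in stimulated rats. Sham rats 1 to 4 were above every stimulated rat, and sham rat 5 lay among the stimulated rats. Means were 12.7 ± 6.42 CPM for sham and 3.85 ± 2.07 CPM for stimulated rats (log2 fold change -1.70, SE 0.465, edgeR unadjusted p = 0.00264, adjusted p = 0.376). Sham rat 5 was thus low in Rpph1 as it was in the ribosomal records. Against Rn18s counts, Rpph1 stood at 0.888 ± 0.269 per 1000 in sham and 0.409 ± 0.255 per 1000 in stimulated rats, with overlapping groups. The record lies within the span of Parp2 in GRCr8, and Parp2 had a log2 fold change of -0.06 (adjusted p = 0.923). Of 17 genes listed for protein subunits of ribonucleases P and MRP and partners of 7SK RNA, 16 were tested. None passed an unadjusted p-value of 0.05 in either direction (edgeR), beside 9.86% of all tested rows.

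Bc1 was the most abundant record outside ribosomal RNA, with 1100021 counts. It took 0.486% ± 0.126 of aligned counts in the sham group and 0.668% ± 0.220 in the stimulated group. Its level was 7437, 5261, 4203, 3836 and 3989 CPM in sham rats and 7195, 4648, 8540, 4120 and 8484 CPM in stimulated rats. Stimulated rats 8 and 10 exceeded all sham rats, while stimulated rats 7 and 9 lay in the middle of them. Bc1 had a log2 fold change of 0.42 (SE 0.224, edgeR unadjusted p = 0.0844, adjusted p = 0.555), a difference within the spread of the rats. Per 1000 bases Bc1 stood at 32322 ± 9807 CPM for sham and 43121 ± 13720.3 CPM for stimulated rats, above every ribosomal record. The libraries were selected for polyadenylated RNA, so this is an order of counts and not of amounts in the tissue. Bc1 also overlaps Lto1 in GRCr8, and how reads shared with other rows were counted was not stated, so its level is uncertain. From high to low, the sham rats ran 1, 2, 3, 5 and 4 for Bc1 and 1, 2, 3, 4 and 5 for Rn45s. The stimulated rats ran 8, 10, 6, 7 and 9 for Bc1 and 8, 9, 7, 6 and 10 for Rn45s, so a like order was seen in the sham group only. With ribosomal RNA and Bc1 set aside, the remaining 51 records took 0.169% ± 0.00779 of aligned counts in sham and 0.164% ± 0.00521 in stimulated rats.

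MicroRNA hairpin records had low counts. Mir935, whose hairpin lies in Cacng8, a gene for an AMPA receptor auxiliary subunit, measured 2.97, 5.65, 2.29, 2.69 and 2.64 CPM in sham rats and 1.54, 2.28, 3.90, 2.35 and 2.53 CPM in stimulated rats. Its highest value was in sham rat 2, and the groups overlapped (log2 fold change -0.36, SE 0.291, edgeR adjusted p = 0.709). Cacng8 itself had a log2 fold change of -0.03.

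Mir22 averaged 1.80 ± 0.274 CPM over sham and 1.77 ± 1.08 CPM over stimulated rats, with a wider range among stimulated rats, from 0.83 CPM in rat 8 to 3.52 CPM in rat 9 (log2 fold change -0.01, SE 0.348, edgeR adjusted p = 0.997). Mir568, inside the transcription factor gene Zbtb20, averaged 1.03 ± 0.472 and 0.643 ± 0.272 CPM (log2 fold change -0.68, SE 0.427, edgeR adjusted p = 0.609). Zbtb20 had a log2 fold change of -0.01. Mir770, inside the imprinted non-coding gene Meg3, averaged 0.699 ± 0.484 and 0.742 ± 0.292 CPM (log2 fold change 0.07, SE 0.473, edgeR adjusted p = 0.974). At these counts none of the 4 hairpins differed detectably. The hairpins are 76 to 96 bases long and the libraries were selected for polyadenylated RNA, so these counts are not levels of the mature microRNAs printed above. Of 21 genes listed for microRNA processing, 14 were tested and 1, Lin28a, was higher at an unadjusted p-value under 0.05 (log2 fold change 0.49, edgeR adjusted p = 0.431), with 0 lower. Among all tested rows, 6.7% were higher and 3.16% lower.

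Around the minimum of 100 counts, the 3 records just inside were Rps7-ps20 with 136 counts, Snhg4 with 104 and Abhd11-as1 with 101. Just outside were Mir212 with 98, Mir678 with 86, and Mir132 and RGD1562890 with 84 each. A minimum of 50 counts would have kept 67 records and one of 200 would have kept 49. Mir212 and Mir132, whose 3p forms share the seed AACAGUC printed above, had their counts in few rats. Mir212 had 4, 2, 1, 1 and 2 counts in sham rats and 2, 30, 0, 56 and 0 in stimulated rats. Mir132 had 1, 1, 1, 1 and 3 counts in sham rats and 4, 19, 1, 46 and 7 in stimulated rats. For both, rats 9 and 7 were highest, and these were also the rats with the highest summed immediate early genes given above. The 2 hairpins lie close together on the plus strand of chromosome 10 in GRCr8, so they may not be separate observations. Fos, a member of that list, measured 5.61, 106, 5.24, 50.3 and 61.7 CPM in stimulated rats and 3.26 to 5.32 CPM in sham rats. Mir132 was above all sham rats in 4 of 5 stimulated rats and Mir212 in 2 of 5. Rat 10 had 0.361 CPM of Mir132, beside at most 0.126 CPM in sham rats, and 0 counts of Mir212. A link of these counts to immediate early genes was not tested.

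Gas5 and Snhg4, the host genes, did not differ detectably. Gas5, with 9 snoRNA genes inside its span in GRCr8, measured 16.1, 16.4, 16.9, 15.3 and 22.8 CPM in sham rats and 17.9, 21.4, 15.7, 13.4 and 14.9 CPM in stimulated rats. Sham rat 5, lowest in the long ribosomal records, was highest in Gas5. The groups differed by -0.07 on the log2 scale (SE 0.150, edgeR adjusted p = 0.908). Snhg4, which lies within the span of Matr3, averaged 0.433 ± 0.249 CPM over sham and 0.606 ± 0.290 CPM over stimulated rats (log2 fold change 0.41, SE 0.490, edgeR adjusted p = 0.814). Matr3, a nuclear matrix protein, had a log2 fold change of -0.01.

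Among the 8 other long non-coding records, CB741658 separated the groups most. It measured 3.43, 4.50, 3.70, 3.31 and 3.10 CPM in sham rats and 4.62, 4.50, 6.07, 4.39 and 7.89 CPM in stimulated rats. Sham rat 2 reached the lower stimulated rats, and rats 8 and 10 were highest. The means were 3.61 ± 0.545 and 5.49 ± 1.51 CPM, a log2 fold change of 0.61 (SE 0.199, edgeR unadjusted p = 0.00859, adjusted p = 0.399).

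H19, an imprinted RNA abundant in embryonic tissue, was high in 1 rat. It measured 1.51, 0.31, 0.38, 0.21 and 0.71 CPM in sham rats and 0.81, 13.0, 0.26, 0.31 and 0.41 CPM in stimulated rats. Apart from rat 7, the stimulated rats lay inside the sham range. The log2 fold change of 2.26 (SE 1.03, edgeR unadjusted p = 0.0454, adjusted p = 0.491) turned to -0.46 (unadjusted p = 0.466) without rat 7. Mir675, the microRNA record inside H19, held 2 counts in all, both in rat 7. Igf2, the imprinted growth factor gene beside H19, measured 3.81 to 4.74 CPM over its 3 rows in rat 7 and 3.15 to 3.66 CPM in rat 10, both below each sham rat, and its highest values of 27.5 to 30.5 CPM were in rat 8.

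The other 6 long non-coding records had log2 fold changes from -0.28 to 0.31, and none passed an unadjusted p-value of 0.05. RT1-T24-2 and RT1-CE6 belong to the rat MHC class I region and had values of 0.31 (SE 0.201, edgeR adjusted p = 0.624) and 0.15. The most abundant was 2810025M15Rikl at 7.87 ± 0.867 CPM over sham and 7.27 ± 2.41 CPM over stimulated rats. Vof16 averaged 6.21 ± 1.86 CPM over sham and 7.22 ± 0.736 CPM over stimulated rats (log2 fold change 0.22). E230034O05Rik, within the span of Prrc2a, averaged 1.41 ± 0.485 and 1.16 ± 0.204 CPM. Abhd11-as1, the antisense RNA of Abhd11, had a log2 fold change of 0.24 with an error of 0.466.

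Other well known non-coding RNAs could not be followed here. Of 46 listed names, from Malat1 and Neat1 to the snoRNA hosts, 5 had a matched and tested curated record, namely Bc1, Gas5, H19, Rpph1 and Snhg4. Terc, the telomerase RNA, held 5 counts. Of 14 listed genes for paraspeckle and speckle proteins, which assemble on such RNAs, 13 were tested. Tardbp alone was higher at an unadjusted p-value under 0.05 (log2 fold change 0.29, edgeR adjusted p = 0.409) and 0 were lower, beside 6.7% higher and 3.16% lower of all tested rows.

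**Figure D3:**
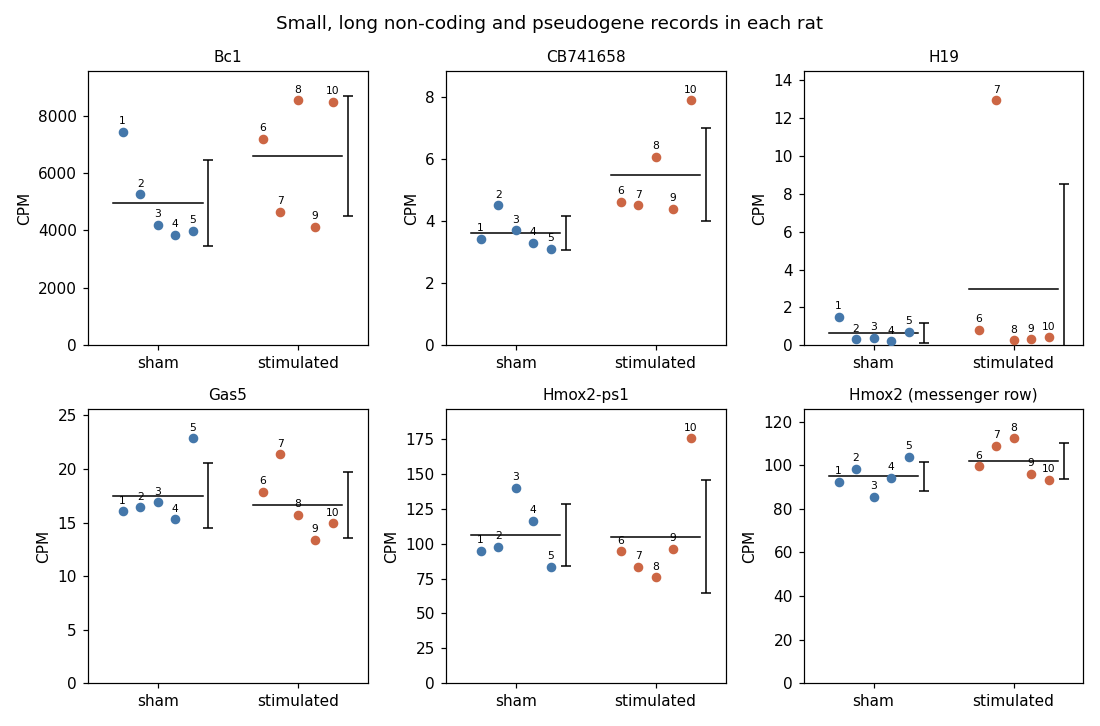
Level of Bc1, CB741658, H19, Gas5, the pseudogene Hmox2-ps1 and the messenger row of Hmox2 in each rat (y axis, CPM from 0; numbers are rats, lines are group means, bars beside them are 1 SD with n = 5, cut off at 0 for H19, and points are spread sideways only to be seen). Single animals stand apart in 3 panels, with rat 7 at 13.0 CPM for H19, rat 5 at 22.8 CPM for Gas5 and rat 10 at 175 CPM for Hmox2-ps1.

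Pseudogene records share sequence with their parent genes, and how the authors' script divided shared reads was not stated, so their counts are uncertain. None of the 9 passed an unadjusted p-value of 0.05, and their median log2 fold change was 0.05. Hmox2-ps1 measured 94.7, 97.6, 139.99, 116 and 83.4 CPM in sham rats and 94.4, 83.4, 75.7, 96.3 and 175 CPM in stimulated rats. Rat 10 was well above the others, whereas the messenger row of Hmox2, a heme oxygenase, stayed between 85.4 and 112 CPM in all rats. Their log2 fold changes were -0.02 and 0.10.

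Ybx1-ps20 was highest in the same rat as its parent gene. It measured 78.9 CPM in rat 7 and 41.9 to 60.3 CPM in the other rats, and Ybx1, which codes for an RNA-binding protein, measured 88.7 CPM in rat 7. Their log2 fold changes were 0.19 and 0.21. Gapdh-ps1 held 5186 counts against 79479 on the messenger row of Gapdh, with log2 fold changes of 0.05 and 0.10. Aoc2-ps1 and Selenok-ps2 had log2 fold changes of 0.19 and -0.34 (edgeR adjusted p = 0.737 and 0.655).

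The 19 non-coding transcripts of protein-coding genes are splice forms listed beside 34 messenger rows of the same 16 genes. In 14 of them the fold change was negative and in 5 positive, with a median of -0.05 and none past an unadjusted p-value of 0.05. A row's share of all counts of its gene lay within 10% of an even split over the gene's rows in 15 of the 19. Nsmf, a synapse-to-nucleus messenger protein, had 19.5% on its non-coding row where an even split over 5 rows is 20%, and the imprinted gene Nnat had 24.7% where it is 25%. The row and the sum over the gene had the same sign of fold change in 19 of 19, with differences up to 0.16 on the log2 scale. That sum includes the row itself, so the agreement was largely built in and is not a separate result.

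Shares departed from an even split for 4 genes. Atp2a2, the calcium pump of the endoplasmic reticulum, had 46.0% of its counts on the non-coding row where an even split is 33.3%, and a log2 fold change of 0.01 (SE 0.0878, edgeR adjusted p = 0.986). Cep63, a centrosomal protein, had 40.1% against 33.3%, and Hrh3, the histamine H3 receptor, 15.2% against 11.1%. The row of Hrh3 had a log2 fold change of -0.28 (SE 0.144, edgeR unadjusted p = 0.0747), close to the -0.28 of the summed gene (edgeR unadjusted p = 0.0400).

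Ngrn, neugrin, had 61.8% against 50%, and its row had the lowest p-value of the class. It measured 45.3, 50.4, 40.7, 45.9 and 49.7 CPM in sham rats and 38.05, 42.9, 38.7, 43.5 and 40.2 CPM in stimulated rats. Most sham rats were above most stimulated rats, with sham rat 3 among the latter. The row had a log2 fold change of -0.19 (SE 0.0901, edgeR unadjusted p = 0.0534, adjusted p = 0.513), and that of the summed gene was -0.13 (unadjusted p = 0.152). The share of Ngrn on this row was 63.1% ± 1.37 in sham and 60.6% ± 0.806 in stimulated rats.

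**Figure D4:**
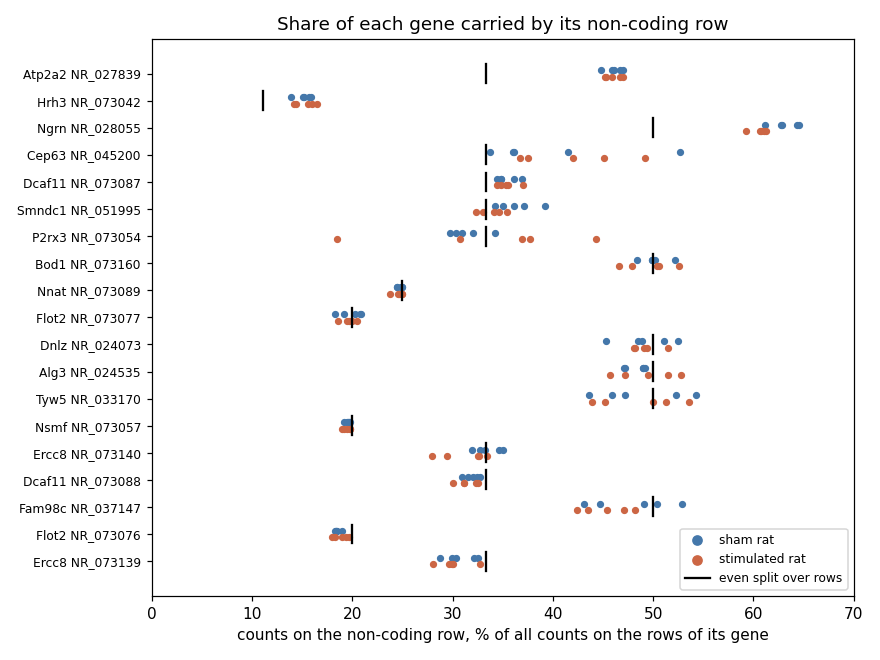
Share of a gene's counts that fell on its non-coding row (x axis, percent of all counts on rows of the gene) for the 19 non-coding transcripts of protein-coding genes (y axis), with 1 point per rat and a black tick at an even split over the gene's rows. Points of most records lie around the tick, and those of Atp2a2, Hrh3 and Ngrn lie to the right of it without touching it.

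Levels of the other abundant rows of this class varied little. Nnat was the exception, with 244.9 to 403 CPM in 9 rats and 151 CPM in rat 10 (log2 fold change -0.12, SE 0.187, edgeR adjusted p = 0.874). Nsmf averaged 306 ± 24.6 CPM over sham and 272 ± 34.7 CPM over stimulated rats (log2 fold change -0.17, edgeR adjusted p = 0.569). Both rows of Dcaf11, a substrate receptor of a ubiquitin ligase, had values of -0.02 and -0.04. P2rx3, an ATP-gated channel, had the largest fold change of the class at 0.55 with an error of 0.42 on 188 counts.

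The 8 records without a symbol had log2 fold changes from -0.34 for NR_027235 to 0.31 for NR_002597, and none passed an unadjusted p-value of 0.05. The most abundant, NR_038113, held 26122 counts and averaged 139 ± 17.5 CPM over sham and 129 ± 9.75 CPM over stimulated rats. NR_045202 averaged 18.2 ± 2.13 CPM over sham and 16.5 ± 0.491 CPM over stimulated rats, and NR_045203 averaged 17.4 ± 3.54 and 15.03 ± 0.772 CPM. Their log2 fold changes were -0.14 and -0.21 (edgeR adjusted p = 0.690 and 0.630). NR_002597 averaged 6.81 ± 0.535 and 8.46 ± 1.77 CPM (edgeR adjusted p = 0.547).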

How the data were processed

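Per the study's methods and the processing notes, BWA was used for alignment to rn4. The authors deposited raw counts of reads for each transcript in each rat, with no normalization. Their methods name an Ensembl annotation, while the rows carry RefSeq identifiers. Neither the counting of reads shared by several rows nor the use of strand was stated, so near copies and overlapping genes are uncertain: 22 of 46 named genes overlap another gene in GRCr8. Symbols, lengths, overlaps and sequences were taken from RefSeq tables of GRCr8, and no sequence of the other records was used here. The members and lists were chosen with earlier results of these data known.

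The row of unaligned reads (32.0% to 45.1% of reads, highest in rats 8 to 10) was set aside. Rows with a sum under the 30th percentile (46 counts) were dropped. The 22447 remaining rows were tested by quasi-likelihood in edgeR 4.0.16 (R 4.3.3) with TMM factors and without covariates, and p-values were adjusted by Benjamini-Hochberg over all of them. CPM used TMM-scaled library sizes. Columns were matched to rats by number. The records named were all ribosomal ones, the 5 most abundant of each class, those with an unadjusted p-value under 0.05, those on a list of known non-coding RNAs and those nearest to 100 counts. Others named were chosen after their values were seen. DESeq2 1.42.0, limma 3.58.1, other scalings and filters, and the omission of each rat were alternatives. The fit was tested on simulated data first. Tables and plots used python 3.11.15, numpy 2.4.6, pandas 2.3.3, scipy 1.17.1 and matplotlib 3.10.9.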

Additional observations from a re-analysis of the deposited data

Results flagged for a closer look

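In 10 of 114 groups of 5 rats, the highest or lowest rat stood apart from the rest by Dixon's test (a gap over 0.71 of the range). Chance gives about 5.7 such groups if the values are normal and the groups independent. Some of these records overlap, and such groups were not counted over all tested rows. An excess in these records can therefore not be read from the count. They were divided evenly, with 5 in sham and 5 in stimulated rats, and fell on 9 records.

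Stimulated rat 7 accounted for 3 of them, with Rn5-8s at 453 CPM (the others at 110 to 125), Rn5s at 31.8 CPM (3.11 to 9.44) and H19 at 13.0 CPM (0.255 to 0.814). Sham rat 1 stood apart for Rn5-8s at 528 CPM (199 to 258) and E230034O05Rik at 2.27 CPM (1.07 to 1.30). In sham rat 5, Gas5 was at 22.8 CPM (15.3 to 16.9). Mir935 was at 5.65 CPM in sham rat 2 (2.29 to 2.97), and P2rx3 at 1.36 CPM in sham rat 3 (0.545 to 0.703). Hmox2-ps1 was at 175 CPM in stimulated rat 10 (75.7 to 96.3). The only rat below its group was stimulated rat 8 for the Ercc8 record NR_073140, at 5.24 CPM (7.94 to 8.98).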

How the results depend on the processing

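The count of records at an adjusted p-value under 0.05 was 0 in every alternative. At an unadjusted p-value under 0.05, records higher in stimulated rats went from 2 to 1, CB741658 alone, with limma-voom, robust empirical Bayes and adjusted deviances (and with DESeq2, which gave H19 no p-value), and ranged from 1 to 3 with single rats left out: 1 without sham rats 2, 3, 4 or 5. Records lower went from 2 to 1, Rpph1 alone, with robust empirical Bayes, and ranged from 1 to 5: 1 without sham rats 1 or 2, 5 without sham rat 5 or stimulated rat 8 and 4 without stimulated rat 7. Rpph1 (log2 fold change -1.98 to -1.48, adjusted p 0.0530 to 0.661) and CB741658 (0.44 to 0.69, adjusted p 0.198 to 0.661) kept their direction and an unadjusted p-value under 0.05 in 21 of 21 alternatives, Rn28s in 12 of 21, H19 in 12 of 20 and Bc1 in 3 of 21. With single rats left out, H19 ranged from -0.46 to 2.84, reversed without stimulated rat 7 (replicate 2), the rat that held most of its counts. With ribosomal counts out of the denominator, the sham share of protein-coding gene transcripts moved from 0.123% to 0.133% and that of other long non-coding RNA from 0.00243% to 0.00263%. Over all alternatives and single named records, an unadjusted p-value under 0.05 was gained 21 times and lost 16 times. The 1 reversal, H19 without stimulated rat 7, lost it as well and is not in the 16. No paired analysis was possible because the groups are different animals with no shared number in the labels. Depth limits records with few counts, since 3 counts are 0.124 to 0.229 CPM.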
